A study of Homo sapiens with 4 samples.

Results

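The genes described here are the replication-dependent histone genes, taken as every protein-coding gene whose symbol begins with HIST1H, HIST2H, HIST3H or HIST4H. There were 71 of them among 58243 genes listed, of which 19818 were protein-coding. The symbol gives the subtype: 6 encode linker histone H1, 17 encode H2A, 18 encode H2B, 15 encode H3 and 15 encode H4. The rule uses names and gene class only.

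DNA in the nucleus is wound around octamers of the core histones H2A, H2B, H3 and H4, and H1 binds the linker DNA between them. Cells make most of these proteins during DNA synthesis, from clustered genes that lack introns in their classic form and that are switched on in S phase through NPAT. Their mRNAs are unusual in ending at a conserved stem-loop rather than a poly(A) tail; stem-loop binding protein (SLBP) holds that structure and is needed for processing, translation and decay of the message, and histone mRNA is degraded quickly when DNA synthesis stops. Variant histones such as H2A.X, H3.3 and H1.0 are encoded outside this rule, and most of their mRNAs are polyadenylated.

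RNA sequencing was carried out on SH-SY5Y, a widely used line derived from a human neuroblastoma, with 2 libraries of untreated cells (control a and b) and 2 libraries of cells exposed to sodium nitroprusside (SNP, a nitric oxide donor) for 8 h (SNP a and b). The SNP libraries are described as an oxidized state; the dose behind them is not stated, no step that selected oxidized RNA is described, and whether the libraries of a group came from separate experiments is not said, so p-values measure only the spread between these samples, which may be technical. All 4 libraries are of 1 cell line, and the treatment text calls the cells retinoic acid differentiated. The molecule is given as total RNA and the extraction as one of mRNA, and poly(A) selection is not mentioned. Reads were 75 bases long.

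Counted reads ranged from 5613144 to 8056550 per library, and 3 counts, used as the floor of detection, corresponded to 0.372 to 0.534 CPM, the counts per 1000000 counted reads. Of 14 markers of adrenergic neuroblastoma cells, 13 exceeded 5 TPM (transcripts per 1000000, scaled by gene length) in every library, and TH was listed at 0. Only 2 of 8 mesenchymal or Schwann-like markers did so, with summed levels of 19.6 to 26.9 TPM. CYP26A1, a retinoic acid target, was listed at 0 in all libraries, and 2 of 6 retinoic acid response genes exceeded 5 TPM. All small nuclear, small nucleolar and ribosomal RNA genes were listed at 0 in every library. The histone genes received 0.172% and 0.198% of the counts in the controls, 0.108% in SNP a and 0.0693% in SNP b.

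The stem-loop could be read directly for part of the family, and a few examples are shown because this structure is what sets these messages apart from other mRNAs. The search looked for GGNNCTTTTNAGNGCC on the sense strand within 100 bases after the stop codon of each GENCODE 29 transcript. It was found in 31 of the 71 histone genes (43.7%) and in 1 of 19661 other protein-coding genes (0.00509%), which was H2AFX. Many of the remaining annotated models stop at or near the stop codon; of the 32 histone genes whose model runs at least 60 bases past it, 30 held the motif. It began between 22 and 67 bases after the stop. In the lines that follow, 5′ to 3′ in GRCh38 transcript sense, capitals mark the 16 bases of the stem-loop and the lower-case flanks are the neighbouring bases of the 3′ untranslated region.
HIST2H2AA3: tcaaaaGGCTCTTTTCAGAGCCacccac
HIST1H2AG: accaacGGCTCTTTTCAGGGCCacccac
HIST1H2BE: cccaaaGGCTCTTTTCAGAGCCactcac
HIST1H2BD: cccaaaGGCTCTTTTAAGAGCCacgcat
HIST2H3C: ccaaaaGGCTCTTTTCAGAGCCacccac
HIST1H4B: tccaatGGCCCTTTTCAGGGCCgcccac
HIST2H4A: cccaaaGGCCCTTTTTAGGGCCgaccac
HIST4H4: ccaaaaGGCCCTTTTCAGGGCCcccaaa
H2AFX: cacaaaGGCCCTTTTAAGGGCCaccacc

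These stretches lie at chr1:149842217-149842244 on the minus strand for HIST2H2AA3, chr6:27133509-27133536 on the plus strand for HIST1H2AG, chr6:26184204-26184231 on the plus strand for HIST1H2BE and chr6:26158581-26158608 on the plus strand for HIST1H2BD. Those of the H3 and H4 genes lie at chr1:149840686-149840713 on the minus strand for HIST2H3C, chr6:26026895-26026922 on the minus strand for HIST1H4B, chr1:149833026-149833053 on the plus strand for HIST2H4A and chr12:14770718-14770745 on the minus strand for HIST4H4. The H2AFX stretch is at chr11:119094892-119094919 on the minus strand. The stem differed by subtype. All 8 H4 genes with a match carried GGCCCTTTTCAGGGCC (5 genes) or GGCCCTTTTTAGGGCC (3 genes). Of the 23 H2A, H2B and H3 genes with a match, 17 carried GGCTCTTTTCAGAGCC and 5 carried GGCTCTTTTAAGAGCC. HIST1H2AG alone carried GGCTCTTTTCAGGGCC. The models of the 6 H1 genes end 0 to 57 bases after the stop codon and held no match.

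SNP a and SNP b were not alike for these genes, and this bears on every result that follows. The median log2 ratio of SNP b to SNP a (on CPM plus 0.5) was −0.77 over the 62 histone genes tested, with 60 of the 62 lower in SNP b, whereas over all 14759 genes tested it was −0.00028 and its 5th to 95th percentiles were −0.48 to 0.56. The shift was present in every subtype, with medians of −1.15 for H1, −0.69 for H2A, −0.90 for H2B, −0.78 for H3 and −0.64 for H4. The control libraries differed less, with a median log2 ratio of control b to control a of 0.18. In the related gene lists described further on, the median ratio of SNP b to SNP a was −0.026 over 35 genes of DNA replication and S phase, −0.095 over 23 factors of histone mRNA synthesis and processing, −0.11 over 19 histone chaperones and −0.23 over 10 replication-independent variants. Among the variants, H3F3A (−0.53) and H2AFZ (−0.54) lay below the 5th percentile of all genes, as did ASF1A (−0.67) among the chaperones. What sets SNP b apart is not given by the labels and was not tested.

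**Figure D1:**
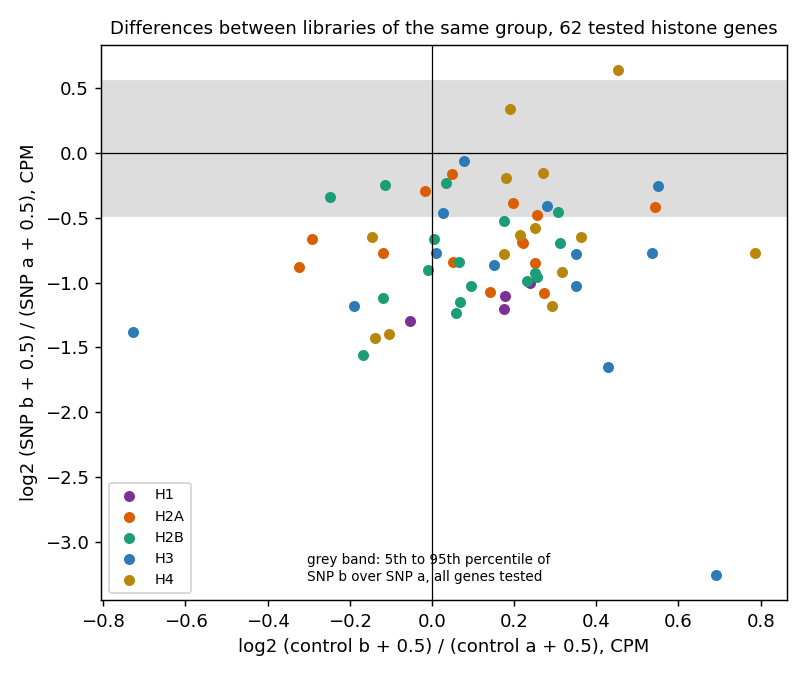
Each point is 1 of the 62 tested histone genes, coloured by subtype; the horizontal axis is the log2 ratio of control b to control a and the vertical axis that of SNP b to SNP a, both on CPM plus 0.5, and the grey band spans the 5th to 95th percentile of the vertical ratio over all genes tested (−0.48 to 0.56). Of the 62 points, 60 lie below 0 on the vertical axis, with a median of −0.77.

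Histone mRNA as a whole was lower in the SNP libraries. The 71 genes summed to 1738 CPM in control a and 1975 CPM in control b, against 1099 CPM in SNP a and 687.1 CPM in SNP b, or 1857 ± 168 against 893 ± 291 (SD, n = 2 each). Both SNP values lay below both control values, a ratio of 0.481 between the means (log2 ratio −1.06). With 2 libraries against 2, an exact permutation test cannot go below p = 0.333, so the sums carry no test. In bulk RNA, fewer cells making histone mRNA and less of it per cell cannot be told apart.

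Gene by gene, 62 of the 71 had enough counts to be tested, with edgeR's quasi-likelihood test fitted on all genes and Benjamini-Hochberg adjustment over all of them. Of these 62, 47 fell at an adjusted p under 0.05, none rose and 15 did not pass the threshold. At an unadjusted p under 0.05 there were also 0 that rose, as there were with DESeq2's Wald test and limma-voom. Over all 14759 genes tested, 26.2% passed in either direction, 12.6% downward and 13.6% upward. The median log2 fold change (SNP over control) of the 62 was −1.13, against −0.0042 for all genes tested, and 61 of the 62 were negative. In 53 of the 62 both SNP libraries were below both controls, a pattern seen in 32.3% of all genes tested; the other 9 overlapped. A fold change below −1 on the log2 scale was found in 39 histone genes, 62.9% of those tested, and in 352 genes in all, so that histone genes made up 11.1% of that group. Leaving out SNP b, the median log2 fold change over all 64 histone genes then tested was −0.77. Leaving out SNP a, the median over all 62 tested was −1.66. Among the genes named, the calls of HIST1H2AC (adjusted p = 0.165), HIST2H2AC (adjusted p = 0.131) and HIST1H4F (adjusted p = 0.0604) ended without SNP b.

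**Figure D2:**
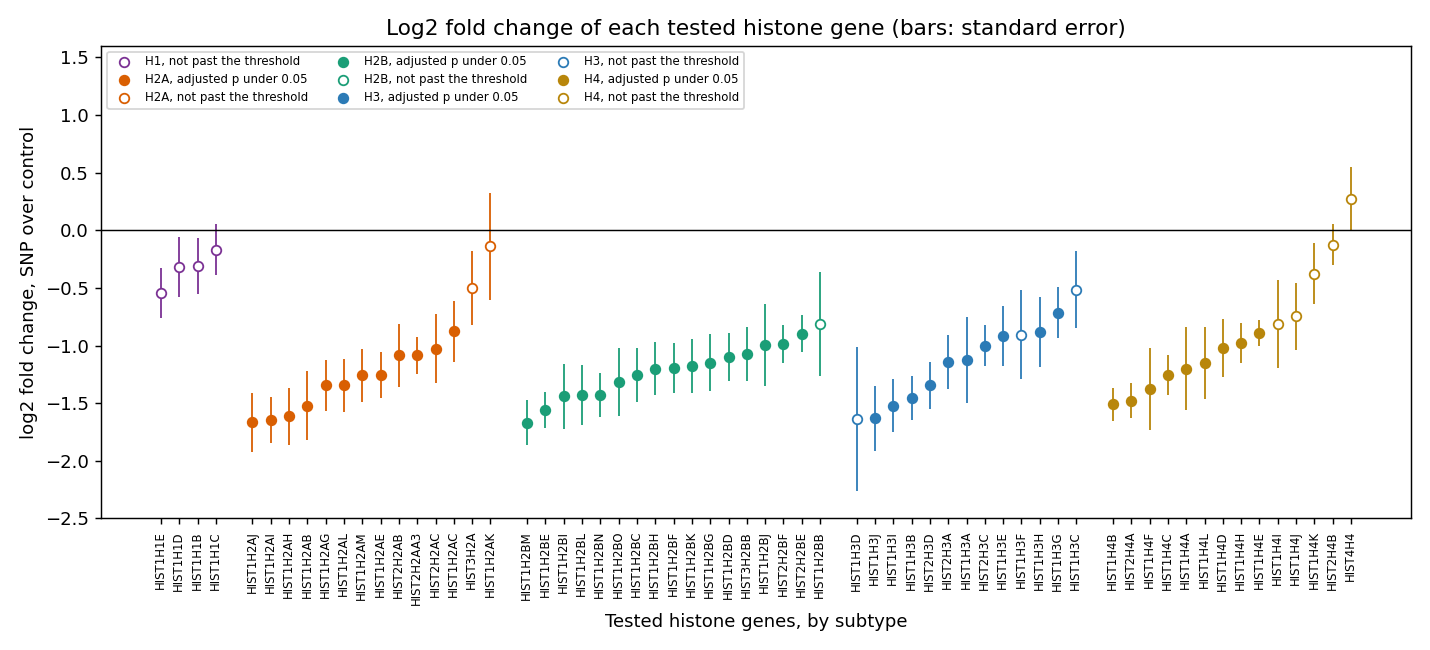
Log2 fold change, SNP over control, of each of the 62 tested histone genes, ordered within subtype; bars are standard errors, filled points passed an adjusted p under 0.05 and open points did not. The 47 filled points all lie below 0 and none belongs to H1; HIST4H4 is the only point above 0.

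The subtypes differed in how many members passed: 12 of 14 tested H2A genes, 16 of 17 H2B genes, 10 of 13 H3 genes, 9 of 14 H4 genes and 0 of 4 H1 genes. Median log2 fold changes were −1.26 for H2A, −1.20 for H2B, −1.12 for H3, −1.0 for H4 and −0.31 for H1. With offsets for length and GC content the medians were −0.94 for H2A, −1.01 for H2B, −0.87 for H3, −0.79 for H4 and −0.03 for H1. With a further offset for guanine minus cytosine they were −0.83, −0.79, −0.88, −0.82 and −0.06 in the same order. The order among the core subtypes thus changed with the offsets, while H1 stayed nearest to no change. For H1, edgeR gave 1 gene lower at an unadjusted p under 0.05, and past the adjusted threshold limma-voom gave 1 (HIST1H1E) and DESeq2's Wald test 0. The difference between subtypes was not tested, since members of a family are not replicates of a condition.

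**Figure D3:**
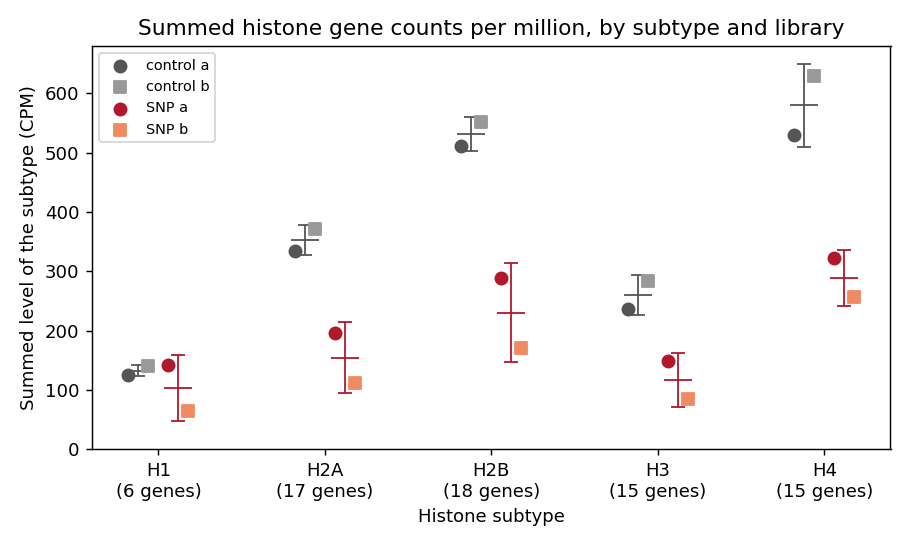
Summed CPM of each histone subtype in every library; points are libraries, horizontal dashes are group means and bars are SD (n = 2). In the core subtypes H2A, H2B, H3 and H4 both SNP libraries lie below both controls, whereas for H1 SNP a (142.6 CPM) lies above both controls and SNP b (63.8 CPM) below them.

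H2A and H2B form the dimer that joins the H3–H4 core of the nucleosome from outside. The 17 H2A genes summed to 334.5 and 370.5 CPM in the controls and to 196.6 and 111.8 CPM in SNP a and b, a log2 ratio of −1.19. The most abundant H2A gene per unit length was HIST2H2AA3 (chr1:149842188-149842736), with a control mean of 794 TPM, the highest listed for a histone gene tested. All of its 75-base windows also occur in HIST2H2AA4, which is listed at 0 in both controls, so this level may hold reads of both copies. HIST2H2AA3 gave 85.4 and 99.8 CPM in the controls, 54.0 CPM in SNP a and 33.2 CPM in SNP b. Both SNP values lay below both controls, and the gene fell by 1.08 on the log2 scale (SE 0.161, adjusted p = 5.1e-05). The largest fall among H2A genes was that of HIST1H2AJ, which gave 19.9 and 16.2 CPM in the controls and 7.05 and 4.28 CPM with SNP. Its log2 fold change was −1.67 (SE 0.256, adjusted p = 6.7e-05), but 82.4% of its 75-base windows also occur in HIST1H2AI.

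Other H2A genes of the HIST1 cluster on chromosome 6 moved alike. HIST1H2AI stood at 45.2 and 46.9 CPM in the controls and at 19.0 and 10.4 CPM with SNP (log2 fold change −1.64, SE 0.20, adjusted p = 5.4e-06). HIST1H2AE stood at 44.6 and 53.1 CPM and then at 26.3 and 14.4 CPM, a log2 fold change of −1.26 (adjusted p = 8.6e-05). HIST1H2AH (−1.62), HIST1H2AB (−1.52) and HIST1H2AM (−1.26) fell as well, each with SNP b the lowest library. The 12 H2A genes that passed spanned log2 fold changes from −1.67 for HIST1H2AJ to −0.88 for HIST1H2AC. The 2 that did not were HIST3H2A (−0.50, adjusted p = 0.264) and HIST1H2AK (−0.14, adjusted p = 0.861), which had 13 to 28 counts per library and lies wholly within the model of HIST1H2BN.

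The 18 H2B genes summed to 511.4 and 552.0 CPM in the controls, 288.8 CPM in SNP a and 170.9 CPM in SNP b, a log2 ratio of −1.21. HIST1H2BM (chr6:27815044-27815424) showed the largest fall of all histone genes tested, although HIST1H2AJ differed from it by far less than its standard error. HIST1H2BM gave 30.2 and 27.9 CPM in the controls and 9.95 and 8.30 CPM in SNP a and b. Its SNP libraries were close to each other and well below the controls, with a log2 fold change of −1.67 (SE 0.193, adjusted p = 3.0e-06). HIST1H2BE stood at 67.1 and 75.8 CPM in the controls and at 28.6 and 19.7 CPM with SNP. It fell by 1.56 on the log2 scale (SE 0.157, adjusted p = 5.7e-07), the lowest adjusted p among H2B genes.

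HIST1H2BK, the H2B gene with the second highest mean level per unit length after HIST1H2BM in the controls (335 TPM), gave 24.7 and 29.5 CPM and then 15.7 and 8.04 CPM. Its log2 fold change was −1.18 (adjusted p = 7.6e-04). HIST1H2BD (−1.10), HIST1H2BI (−1.44) and HIST1H2BL (−1.43) also fell, each with SNP b below SNP a. HIST1H2BB, with 9 to 35 counts per library, was the 1 tested H2B gene that did not pass (−0.82, adjusted p = 0.198). The 16 that passed spanned −1.67 to −0.90, the latter for HIST2H2BE.

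Many H2A and H2B genes sit head to head and share a short promoter region. GENCODE 29 places 11 such pairs with start sites within 500 bases on opposite strands, and the gaps were 219 to 331 bases. In 9 pairs both genes were tested, and in 8 of the 9 both fell. The log2 fold changes of partners differed by 0.0019 to 0.57, with a median of 0.212. In 8 of the 9 the difference was within the plain sum of the partners' standard errors. That sum is a wider limit than the standard error of a difference between independent genes. Unpaired H2A and H2B genes were not compared, so whether partners are more alike than other genes was not tested.

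HIST1H2AJ and HIST1H2BM, whose starts lie 304 bases apart, had equal log2 fold changes of −1.67. HIST1H2AE (−1.26) and HIST1H2BG (−1.15), 283 bases apart, differed by 0.109. HIST1H2AI (−1.64) and HIST1H2BL (−1.43) differed by 0.212, and HIST2H2AC (−1.03) and HIST2H2BE (−0.90) by 0.130. HIST1H2AC (−0.88, SE 0.265) and HIST1H2BC (−1.25, SE 0.235) differed by 0.378. The widest gap was in the pair of the HIST3 cluster, where HIST3H2BB fell (−1.07, adjusted p = 0.00183) and HIST3H2A had a log2 fold change of −0.50 with an SE of 0.321.

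**Figure D4:**
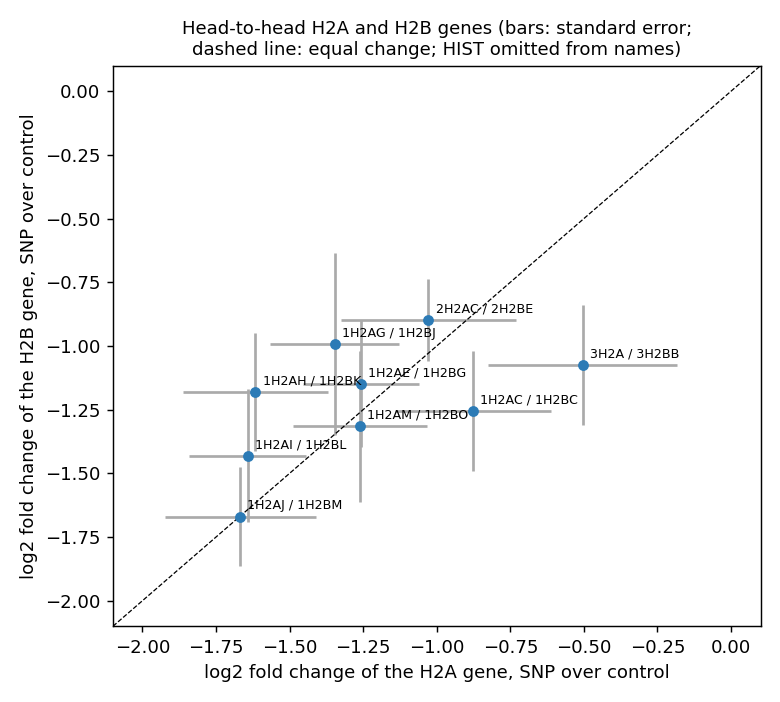
Log2 fold change of the H2A gene (horizontal axis) and of its head-to-head H2B partner (vertical axis) for the 9 pairs with both genes tested; bars are standard errors and the dashed line marks equal change. All 9 points lie below 0 on both axes, with the HIST3 pair farthest from the line (difference 0.57).

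Promoter sequence was examined because head-to-head partners share this region and most core histone genes fell. RefSeq promoters (GRCh38.p14, 250 bases before to 50 after the start, 300 bases in all) were matched for 61 of the 71 genes, which RefSeq lists under newer symbols. Each motif was searched on both strands and at any position in the 300 bases, so no distance from the start and no orientation was required. Matches of different motifs were counted independently even where they overlapped. The CCAAT box (CCAAT) was present in 83.6% of the 61 against 34.6% of all 35116 promoters: in every matched H1, H2A, H2B and H3 promoter and in 23.1% of those of H4. The TATA box (TATAAA) was present in 68.9% against 11.5%. The octamer ATTTGCAT, bound by POU2F1, was found in 11 of 16 H2A and 9 of 13 H2B promoters and in no H1, H3 or H4 promoter, against 1.77% of all promoters. Promoter windows of head-to-head partners can overlap, so the same octamer may be counted for both genes. The H1 box (AAACACA) was present in all 6 H1 promoters and in 5.64% of all promoters.

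The promoters of the most reduced H2B gene and of the most abundant H1 gene are shown to let these elements be compared. Capitals mark the letters of the TATA box, the CCAAT box, the octamer and the H1 box in either orientation and at any position. All other bases are in lower case. The only TATA box match of HIST1H2BM is in reverse orientation (TTTATA), in the part of the window far from its start. The first is chr6:27814772-27815071 and the second chr6:26156079-26156378, both on the plus strand.
HIST1H2BM: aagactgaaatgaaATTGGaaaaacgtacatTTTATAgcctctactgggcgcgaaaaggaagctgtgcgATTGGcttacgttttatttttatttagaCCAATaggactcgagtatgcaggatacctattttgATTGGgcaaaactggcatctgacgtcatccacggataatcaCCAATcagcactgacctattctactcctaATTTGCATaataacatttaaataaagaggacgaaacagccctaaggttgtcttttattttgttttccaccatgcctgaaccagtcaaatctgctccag
HIST1H1E: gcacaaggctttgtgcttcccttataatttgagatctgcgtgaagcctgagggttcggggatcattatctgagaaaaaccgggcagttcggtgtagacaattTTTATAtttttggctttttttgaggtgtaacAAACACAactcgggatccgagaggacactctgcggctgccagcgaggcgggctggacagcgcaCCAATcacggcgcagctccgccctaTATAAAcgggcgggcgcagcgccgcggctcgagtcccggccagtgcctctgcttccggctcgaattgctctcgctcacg

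Among the 25 tested H2A and H2B genes with a matched promoter, 16 of 17 with the octamer fell (median log2 fold change −1.20) and 6 of 8 without it fell (median −1.09). Head-to-head partners among them may share the same octamer. A match is a description of letters and says nothing of whether a factor was bound.

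H3 and H4 form the tetramer at the centre of the nucleosome. The 15 H3 genes summed to 236.4 and 284.1 CPM in the controls, 148.9 CPM in SNP a and 84.7 CPM in SNP b (log2 ratio −1.16). HIST1H3B (chr6:26031650-26032060) had the highest level of the H3 genes, with a control mean of 682 TPM. It gave 52.3 and 66.8 CPM in the controls and 27.4 and 15.8 CPM with SNP, and fell by 1.45 on the log2 scale (SE 0.19, adjusted p = 1.2e-05). HIST1H3I gave 18.0 and 26.6 CPM and then 8.434 and 7.002 CPM, a log2 fold change of −1.52 (adjusted p = 5.9e-05).

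HIST1H3J had the largest fall among called H3 genes (−1.63, adjusted p = 2.3e-04), but 346 bases of its exons overlap HIST1H2AM. HIST2H3D fell by 1.35 on the log2 scale, from 23.4 and 28.6 CPM to 11.7 and 8.69 CPM, but 70.3% of its 75-base windows also occur in other genes. HIST1H3C, among the 4 most abundant H3 genes, did not pass: it gave 12.8 and 17.4 CPM in the controls, 16.1 CPM in SNP a and 4.80 CPM in SNP b. SNP a lay between the controls and SNP b lay below both (log2 fold change −0.52, adjusted p = 0.272). Without SNP b the log2 fold change of HIST1H3C was 0.11. HIST1H3F (−0.91, adjusted p = 0.0899) did not pass either, with 34 and 67 counts in the controls and 52 and 17 with SNP. HIST1H3D (−1.64, SE 0.623, adjusted p = 0.057) had 33, 48, 34 and 0 counts in control a, control b, SNP a and SNP b, and all of its 75-base windows also occur in the overlapping model AL031777.3.

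The 15 H4 genes formed the largest sum, with 530.2 and 629.4 CPM in the controls, 322.3 CPM in SNP a and 255.9 CPM in SNP b (log2 ratio −1.0). HIST1H4B (chr6:26026815-26027252) was the most abundant H4 gene per unit length, with a control mean of 712 TPM. It gave 59.99 and 72.44 CPM in the controls and 24.4 and 21.9 CPM with SNP. Both SNP libraries were close together, and its adjusted p of 3.3e-07 was the lowest of all histone genes (log2 fold change −1.51, SE 0.145). HIST1H4C gave 47.7 and 56.8 CPM and then 26.2 and 17.4 CPM, a log2 fold change of −1.26 (adjusted p = 2.3e-05).

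HIST1H4E was listed with the most counts of any single histone gene in the controls, at 125.8 and 142.6 CPM, and then 77.2 and 67.6 CPM with SNP. The near-identical copies HIST2H4A and HIST2H4B together had more in the controls (1046 and 1101 counts, against 816 and 803 for HIST1H4E). HIST1H4E fell by 0.89 on the log2 scale (SE 0.115, adjusted p = 1.2e-05), the smallest fall among the 9 H4 genes that passed. HIST1H4F (−1.38) and HIST1H4D (−1.02) fell too, with 16 to 50 and 51 to 125 counts per library.

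HIST4H4, the only member on chromosome 12 (chr12:14767999-14771131), was the 1 tested histone gene with a positive log2 fold change. It gave 6.32 and 7.28 CPM in the controls and 7.18 and 9.21 CPM with SNP, and the groups overlapped (log2 fold change 0.27, SE 0.277, adjusted p = 0.51). It also had the lowest level per unit length in the controls, 12.4 TPM, and was 1 of the 2 tested genes higher in SNP b than in SNP a. Its stem-loop is that of 4 other H4 genes, of which HIST1H4B is among the sequences above.

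The other gene higher in SNP b was HIST2H4B, which shares 97.1% of its 75-base windows with HIST2H4A. Reads of read-length identical copies cannot be assigned to 1 of them, so the pair is best read as a sum. HIST2H4A gave 792, 798, 457 and 285 counts in control a, control b, SNP a and SNP b and fell (−1.48, adjusted p = 6.8e-07). HIST2H4B gave 254, 303, 263 and 401 counts (−0.12, adjusted p = 0.657). Added together, in a fit chosen after the data were seen, they gave 1046, 1101, 720 and 686 counts. The sum fell by 0.99 on the log2 scale (SE 0.112, adjusted p = 2.4e-06), and SNP a and b were then nearly equal.

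A further 4 pairs of near-identical copies were summed in the same way. HIST1H2AI with HIST1H2AJ (−1.65, adjusted p = 1.8e-06), HIST2H3A with HIST2H3C (−1.07, adjusted p = 5.0e-05) and HIST2H2AA3 with HIST2H2AA4 (−1.01, adjusted p = 1.8e-04) fell. HIST1H4J with HIST1H4K gave 155, 160, 187 and 89 counts and did not pass (−0.57, adjusted p = 0.0744). Neither copy passed by itself, with log2 fold changes of −0.75 for HIST1H4J and −0.38 for HIST1H4K. HIST1H4I, the remaining H4 gene that did not pass, had 16 to 51 counts (−0.81, adjusted p = 0.126). Falls were found with and without shared sequence: 25 of 35 tested genes with no shared 75-base window fell (median −1.08), as did 9 of 14 with over 50% of windows shared (median −1.16).

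Linker histone H1 genes stood apart in the counts. The 6 genes summed to 125.5 and 139.5 CPM in the controls, 142.6 CPM in SNP a and 63.8 CPM in SNP b, so the SNP libraries enclosed the controls. Per 100 core histone counts there were 7.79 and 7.60 H1 counts in control a and b, against 14.9 in SNP a and 10.2 in SNP b. Both SNP values of this ratio lay above both controls, although the 2 SNP libraries differed from each other by more than SNP b did from the controls.

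HIST1H1E (chr6:26156354-26157107), the most abundant H1 gene, gave 46.73 and 52.9 CPM in the controls, 46.70 CPM in SNP a and 21.5 CPM in SNP b. SNP a was thus almost equal to control a, and the gene did not pass (log2 fold change −0.54, SE 0.216, adjusted p = 0.0681). It did pass with a filter at a mean of 50 counts (adjusted p = 0.0494), with limma-voom (adjusted p = 0.0365) and without control a (adjusted p = 0.0148). HIST1H1C gave 27.8 and 32.8 CPM in the controls, 36.0 CPM in SNP a and 17.8 CPM in SNP b (−0.17, SE 0.222, adjusted p = 0.624). HIST1H1B gave 27.1 and 30.7 CPM, then 32.6 and 13.9 CPM (−0.31, adjusted p = 0.381). HIST1H1D gave 23.6 and 22.7 CPM, then 26.6 and 10.5 CPM (−0.32, adjusted p = 0.405). In all but HIST1H1E, SNP a exceeded both controls and SNP b was below both.

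The H1 result depends on which SNP library is used. Without SNP b the median log2 fold change of the 4 genes was 0.19, with 0.26 for HIST1H1C, 0.20 for HIST1H1D and 0.18 for HIST1H1B. Without SNP a all 4 fell, from −0.77 for HIST1H1C to −1.21 for HIST1H1E, each with an adjusted p under 0.05, and the median was −1.10. The core subtypes kept negative medians either way: −0.88 and −1.69 for H2A, −0.81 and −1.75 for H2B, −0.65 and −1.64 for H3, and −0.65 and −1.59 for H4 without SNP b and without SNP a.

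The 9 genes not tested had at most 41 counts in any library. HIST1H1A, HIST1H2AA, HIST2H3PS2 and HIST1H4G had none in any library, at a floor of 3 counts. HIST1H1T, HIST1H2BA and HIST3H3, whose products are best known from the testis, had at most 6, 2 and 1 counts. HIST1H2AD had 0, 0, 41 and 1 counts in control a, control b, SNP a and SNP b, and HIST2H2AA4 had 0, 0, 35 and 0. Both were counted almost wholly in SNP a; 97.8% of the windows of HIST1H2AD also occur in AL031777.3 and 96.9% of those of HIST2H2AA4 in HIST2H2AA3. They passed as higher where the filter on low counts was left off or where either control or SNP b was left out.

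Falls were found at every extent of the annotated model past the stop codon. Of the tested genes whose model is coding sequence only, 20 of 29 fell (median −1.20), as did 6 of 8 with 1 to 150 bases after the stop (median −1.26) and 21 of 25 with a longer end (median −0.99). Of the 29 tested genes with a stem-loop inside the model, 24 fell (median −1.08). By cluster, 37 of 49 tested HIST1 genes, 9 of 10 HIST2 genes, 1 of 2 HIST3 genes and 0 of 1 HIST4 gene fell.

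The histone genes differ from other genes in length and base composition. The median GC content of the tested histone genes was 57.4% and their median exon length 529 bases, against 48.9% and 4868 bases for all genes tested, and guanine minus cytosine was −0.48 against 1.04 percentage points. With offsets for length and GC content 39 histone genes fell, beside 13.8% of all genes tested, and the median over all 62 was −0.90. With a further offset for guanine minus cytosine 33 fell, beside 9.62% of all genes tested, and the median over all 62 was −0.81. Under the latter, among the genes named, HIST2H2AA3, HIST1H2AE, HIST1H2AM, HIST2H2AC, HIST1H2BK, HIST1H2BL, HIST1H2BI and HIST1H4D no longer passed, with adjusted p-values of 0.0528 for HIST1H2AE to 0.391 for HIST2H2AC. DESeq2's Wald test called 36 lower, beside 7.5% of all genes tested. Among the genes named it left out HIST1H2BD, HIST1H2BC, HIST1H2AC and HIST2H2AC (adjusted p from 0.0728 to 0.113).

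Related gene lists were counted beside the shares of all genes tested, 12.6% lower and 13.6% higher. Of 23 factors that transcribe histone genes or make, bind or degrade their mRNA, 2 fell and 6 rose, with a median log2 fold change of −0.095; the count of falls is near the share of all genes. SLBP gave 37.6 and 38.5 CPM in the controls and 36.3 and 27.9 CPM with SNP, and did not pass (−0.25, SE 0.155, adjusted p = 0.259). NPAT, the coactivator of these genes, gave 166.1 and 151.3 CPM and then 126.5 and 121.1 CPM and fell (−0.36, adjusted p = 0.0139), a call that ended without control a (adjusted p = 0.216). NCBP2, a cap-binding subunit, rose by 0.92 on the log2 scale (adjusted p = 5.5e-05). SRRT, which links the cap to processing, rose by 0.64 (adjusted p = 2.0e-04), and CTIF, a translation factor of the cap-binding complex, fell (−0.66, adjusted p = 6.4e-04).

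Of 19 histone chaperones, which carry newly made histones to DNA, 1 fell and 6 rose (median 0.071), against 12.6% lower and 13.6% higher over all genes. The 1 that fell was ASF1B, an H3–H4 chaperone of proliferating cells, at 18.51 and 22.01 CPM in the controls and 11.8 and 9.08 CPM with SNP (−0.95, adjusted p = 0.00211). CHAF1A, the large subunit of chromatin assembly factor 1, rose from 82.7 and 92.9 CPM to 136.8 and 149.6 CPM (0.71, adjusted p = 7.9e-05). ATRX, which deposits H3.3 with DAXX, rose by 0.55 (adjusted p = 6.9e-05). The offset for guanine minus cytosine ended the calls of ASF1B (adjusted p = 0.121) and ATRX (adjusted p = 0.604).

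Of 12 replication-independent variant genes, 10 were tested, 1 fell and 1 rose (median −0.056), shares near the 12.6% and 13.6% of all genes. This count depended on the fit. In either direction, 4 were called with length and GC offsets, beside 28.5% of all genes tested. With guanine minus cytosine added 6 were called, beside 19.7% of all genes tested. H2AFX, which encodes the DNA damage-marking variant H2A.X and is known to yield both stem-loop and polyadenylated messages, gave 55.7 and 56.6 CPM in the controls and 24.42 and 29.04 CPM with SNP. It fell by 1.07 on the log2 scale (SE 0.142, adjusted p = 1.6e-05), and SNP b was above SNP a, unlike most clustered genes. H1F0, which encodes the H1.0 variant of differentiated cells, rose from 56.0 and 71.9 CPM to 131.0 and 106.6 CPM (0.90, adjusted p = 4.5e-05).

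Of 35 genes of DNA replication and S phase, 7 fell and 2 rose (median −0.21), against 12.6% lower and 13.6% higher over all genes. TK1, thymidine kinase of the S-phase nucleotide supply, gave 46.3 and 44.0 CPM in the controls and 18.9 and 19.2 CPM with SNP (−1.25, adjusted p = 5.9e-06). CDT1, a replication licensing factor, gave 89.6 and 85.2 CPM and then 35.8 and 45.4 CPM (−1.11, adjusted p = 4.0e-06). RRM2, the small subunit of ribonucleotide reductase, fell by 0.67 (adjusted p = 3.9e-05). TK1 had almost the same level in both SNP libraries. HIST2H3C was listed so too (13.9 and 13.2 CPM), but its reads cannot be told from those of its copy HIST2H3A. Summed, these copies had 232 counts in SNP a and 170 in SNP b. The part of a change in cycling cells in the histone result was not tested.

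**Figure D5:**
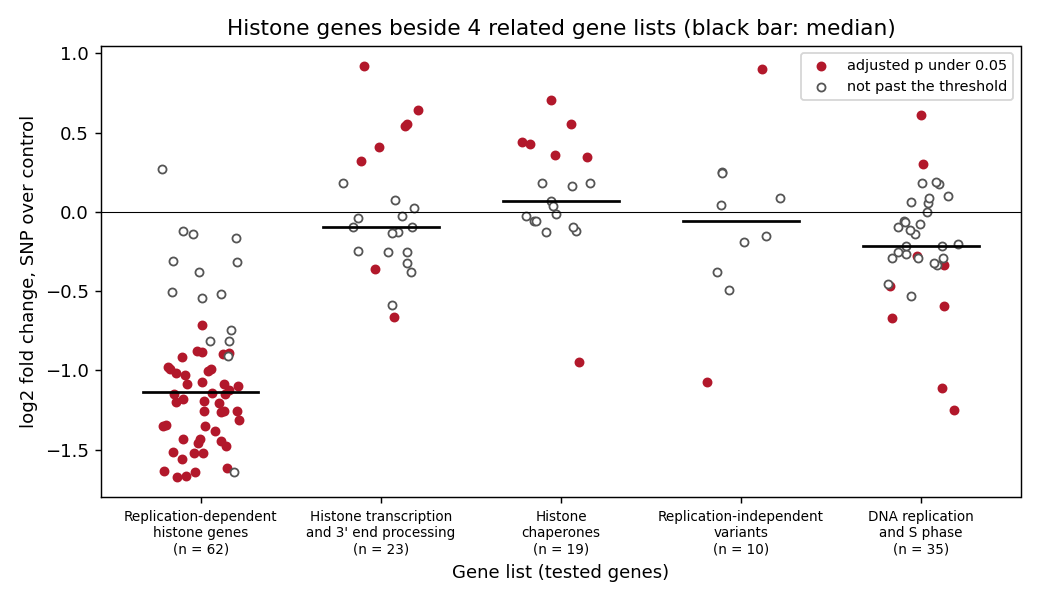
Log2 fold change, SNP over control, of the 62 tested histone genes and of the tested genes of 4 related lists; red points passed an adjusted p under 0.05, open points did not, black bars are medians and horizontal jitter carries no meaning. The histone genes have a median of −1.13, while the medians of the other lists lie between −0.21 and 0.071.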

How the data were processed

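Counts were deposited by the authors as whole reads per gene without normalization, beside TPM scaled to a fixed total per library and RPKM per kilobase and depth, per the file headers; GRCh38 is named in the submitters' processing notes, and the aligner, counter and use of strand are not given in the sources used here. TPM values served only to order levels between genes and to check markers, and RPKM values only to derive gene lengths. Of 58243 gene identifiers, 57980 are in GENCODE 29, and all 63 histone genes counted in control a had its exon length within 1%. Counts were fitted with edgeR 4.0.16 in R 4.3.3 (filterByExpr, minimum count 10 and total 15; TMM; quasi-likelihood test over all genes, 4 libraries, no covariate; Benjamini-Hochberg, 0.05). CPM values use TMM-scaled totals. Alternatives used DESeq2 1.42.0, limma 3.58.1, other filters and scalings, offsets, a replicate block and leaving out each library; scripts were tested on simulated data.

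Groups came from the sample titles and descriptions. The letters a and b come from the titles, and no label ties same-letter libraries to each other. The correlation of the deviations of same-letter libraries from their group means was 0.05, so the letters were not used as pairs. The members and gene lists were chosen with earlier results of these data known. Genes were named by rule: per subtype the 4 highest by mean TPM and up to 4 with the largest change among those past the threshold, 5 head-to-head pairs by count, up to 3 called genes per list, SLBP and NPAT; members that did not pass, that share sequence or that were not tested are named besides, chosen after their values were seen.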

Additional observations from a re-analysis of the deposited data

How the results depend on the processing

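The number of histone genes lower stayed between 33 and 58 over 18 alternatives, and no alternative moved it by over 1.5 times. Genes higher numbered 2 without the filter and 0 to 2 when a library was left out. Genes called overall numbered 2377 with the Wald test, 2018 without exonic overlap, 2224 at an adjusted p under 0.01, 647 at a log2 fold change of 1 or more in size (the fold threshold) and 2447 to 4144 when a library was left out. Processing factors called numbered 5 with the Wald test, 4 at 0.01, 0 at the fold threshold and 5 to 7 with a library left out. Chaperones numbered 4 with the guanine minus cytosine offset, 3 without overlap and 0 at the fold threshold. Variants numbered 4 with length and GC offsets, 6 with guanine minus cytosine added, 1 at the fold threshold and 2 to 5 with a library left out; S-phase genes numbered 2 at the fold threshold. HIST1H1C reversed to 0.127 with length and GC offsets, and HIST1H3C to 0.111 with guanine minus cytosine added. With a library left out, log2 fold changes ran from −0.767 to 0.256 for HIST1H1C, −1.06 to 0.179 for HIST1H1B, −1.14 to 0.20 for HIST1H1D and −1.64 to 0.105 for HIST1H3C, and the H1 median from −1.10 to 0.189. The cause was not tested.

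With the replicate block, 52 histone genes and 4487 genes in all were called, and variants numbered 4. HIST1H1E (adjusted p = 0.00859), HIST1H3D (0.0116), HIST1H3F (0.0213), HIST1H4J (0.0205) and HIST1H4I (0.0478) then passed. With length and GC offsets added to the block, 39 histone genes and 4077 genes in all were called. Variants numbered 4 there, and the log2 fold change of HIST1H1C was 0.0669. With only 2 letters sharing a correlation of 0.05, the block says nothing firm about pairing. Of 521 values of 33 named histone genes, 485 kept direction and side of the threshold, 20 no longer passed, 9 newly passed and 7 reversed. Depth limits genes under about 50 counts, and with 2 libraries a group and a wide gap between the SNP libraries, sizes are less certain than directions of the core subtypes.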
